A study of Mus musculus with 5 samples.

Results

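Binding of NEUROD2, a neuronal basic helix-loop-helix transcription factor, was examined at 10 genes of the excitatory postsynaptic scaffold: Dlg1, Dlg2, Dlg3, Dlg4, Shank1, Shank2, Shank3, Homer1, Grip1 and Dlgap1. These 10 genes were chosen by name, from 21938 protein-coding genes of the mouse annotation. A gene was given every peak that overlapped its body or the 10 kb on either side of it. The peaks came from ChIP-Seq, in which DNA fragments bound by a protein are recovered with an antibody and sequenced. Cerebral cortex of untreated BALB/c pups was collected at postnatal day 0, pooled from littermates of either sex, and NEUROD2 was precipitated with 3 different antibodies, 1 library each. A GFP antibody on the same tissue provided the control reads for peak calling and has no peak list of its own, and the input DNA library did not enter. It is not stated if a separate group of pups was dissected for each antibody, so the spread between antibodies covers the antibody and the library and may not cover the animals. The tissue was whole cortex, and the peaks do not show in which of its cell types a site was bound.

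Scaffold proteins of the postsynaptic density hold glutamate receptors opposite the site of transmitter release and tie them to signalling proteins and to the actin cytoskeleton. The DLG proteins are membrane-associated guanylate kinases that bind receptor tails through PDZ domains, DLGAP1 links their guanylate kinase domain to the SHANK proteins, and HOMER1 links SHANK proteins to metabotropic glutamate receptors. GRIP1 is a multi-PDZ protein that binds AMPA receptor subunits. NEUROD2 and its relatives bind E-boxes, the 6 bp motif CANNTG, which reads as an E-box on both strands.

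A peak of each of the 3 antibodies at 1 place, called a shared site below, was found at 3 of the 10 genes: Dlg4, Grip1 and Dlgap1. Of all protein-coding genes, 7.52% had a shared site in the same span. With peaks of a score of at least 100 alone, Grip1 was the 1 gene left (3.5% of protein-coding genes), and without antibody 3, with sharing asked of the other 2, there were 5 genes (13.2%). At least 2 antibodies met at 5 of the 10 genes, the same 3 and Dlg2 and Shank1, against 15.1% of protein-coding genes. A peak of any antibody lay at 9 of the 10 genes, against 35.2% of protein-coding genes, and Dlg3 alone had none. Without antibody 2 a peak lay at 5 genes (18.2% of protein-coding genes). With scores of at least 100 a peak lay at 6 genes, and no background share is given for that cut. No comparison between groups of samples was possible with 1 condition and 1 library per antibody, so counts are given beside their background and without a test.

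The stretches that carry these sites are printed first, because the E-boxes under them are referred to throughout. Each is the + strand of GRCm38 (RefSeq, C57BL/6J, while the mice were BALB/c), which is also the coding strand of all 10 genes, with every E-box in capitals. For Grip1, both Dlgap1 sites, Shank1 and the site before Dlg2 the stretch lies under the peaks of all antibodies that called the site, for Shank1 it is the middle 300 bp of them, and for Dlg2 it starts after the first exon of the neighbouring gene. For Dlg4, whose site covers untranslated exons, only the 30 bases around the E-box shared by the antibodies are shown. The Homer1 stretch is the part of its peak that lies in a RefSeq promoter window, and the last 2 stretches are runs of 1 E-box form under peaks of antibody 2 alone.
Dlg4, all 3 antibodies, chr11:70030075-70030104: cccactctttacCATCTGctgttcccctct
Grip1, all 3 antibodies, chr10:120038244-120038543: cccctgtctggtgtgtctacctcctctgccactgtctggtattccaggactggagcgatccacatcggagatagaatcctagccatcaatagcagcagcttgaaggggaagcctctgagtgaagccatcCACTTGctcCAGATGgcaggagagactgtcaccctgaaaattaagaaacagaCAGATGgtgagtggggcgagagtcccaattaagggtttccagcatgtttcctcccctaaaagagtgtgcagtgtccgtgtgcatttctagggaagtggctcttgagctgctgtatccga
Dlgap1, all 3 antibodies, chr17:70629991-70630205: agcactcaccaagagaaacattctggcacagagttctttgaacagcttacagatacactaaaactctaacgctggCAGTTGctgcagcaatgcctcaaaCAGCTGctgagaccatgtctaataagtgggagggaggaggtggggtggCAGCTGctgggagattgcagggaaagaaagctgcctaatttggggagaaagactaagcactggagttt
Dlgap1, antibodies 1 and 2, chr17:70437317-70437555: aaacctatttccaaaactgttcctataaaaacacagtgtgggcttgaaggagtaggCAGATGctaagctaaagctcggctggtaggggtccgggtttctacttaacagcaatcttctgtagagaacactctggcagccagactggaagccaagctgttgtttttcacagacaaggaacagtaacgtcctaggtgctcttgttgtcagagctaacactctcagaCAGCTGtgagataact
Dlg2, antibodies 1 and 2, chr7:90476002-90476269: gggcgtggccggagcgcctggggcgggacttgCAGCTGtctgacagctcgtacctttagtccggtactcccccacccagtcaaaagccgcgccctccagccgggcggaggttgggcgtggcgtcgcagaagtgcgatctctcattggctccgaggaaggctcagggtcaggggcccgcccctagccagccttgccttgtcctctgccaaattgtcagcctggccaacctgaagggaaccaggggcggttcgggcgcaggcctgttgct
Shank1, antibodies 1 and 2, chr7:44336861-44337160: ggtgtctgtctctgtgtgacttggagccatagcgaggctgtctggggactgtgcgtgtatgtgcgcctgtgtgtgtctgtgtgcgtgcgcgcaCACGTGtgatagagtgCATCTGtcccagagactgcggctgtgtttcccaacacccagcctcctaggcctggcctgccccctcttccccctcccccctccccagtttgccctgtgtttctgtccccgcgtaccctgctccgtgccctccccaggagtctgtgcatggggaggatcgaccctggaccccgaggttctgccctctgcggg
Homer1, antibody 2, chr13:93303507-93303643: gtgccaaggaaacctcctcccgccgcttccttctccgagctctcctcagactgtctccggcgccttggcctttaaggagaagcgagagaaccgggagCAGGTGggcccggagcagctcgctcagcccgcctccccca
Dlg2 run, antibody 2, chr7:91659563-91659606: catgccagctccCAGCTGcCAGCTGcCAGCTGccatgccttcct
Dlg4 run, antibody 2, chr11:70043179-70043250: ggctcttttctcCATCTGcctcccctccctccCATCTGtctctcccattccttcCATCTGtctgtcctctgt

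The peak lists differed in length, with 5202 peaks of antibody 1, 11196 of antibody 2 and 3164 of antibody 3. Each peak has a score from MACS, minus 10 times the log10 of its p, and no list went below a score of 50. Scores rise with sequencing depth, which the lists do not give, so raw scores are not compared between antibodies. Percentiles, the share of an antibody's own list with a lower score, are given instead, and for shared sites also ranks among the 2088 shared sites, since the lists differ in length. The exception is the cut at a score of 100, which is the same for all 3 lists. It keeps 42.7%, 46.4% and 34.6% of the lists of antibodies 1, 2 and 3. The spans of the 10 genes held 33 peaks, 8 of antibody 1, 22 of antibody 2 and 3 of antibody 3. Overlapping peaks (by 1 bp or more) were joined into 1 merged site, which gave 24 sites at the 10 genes and 12637 in the whole genome.

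**Figure D1:**
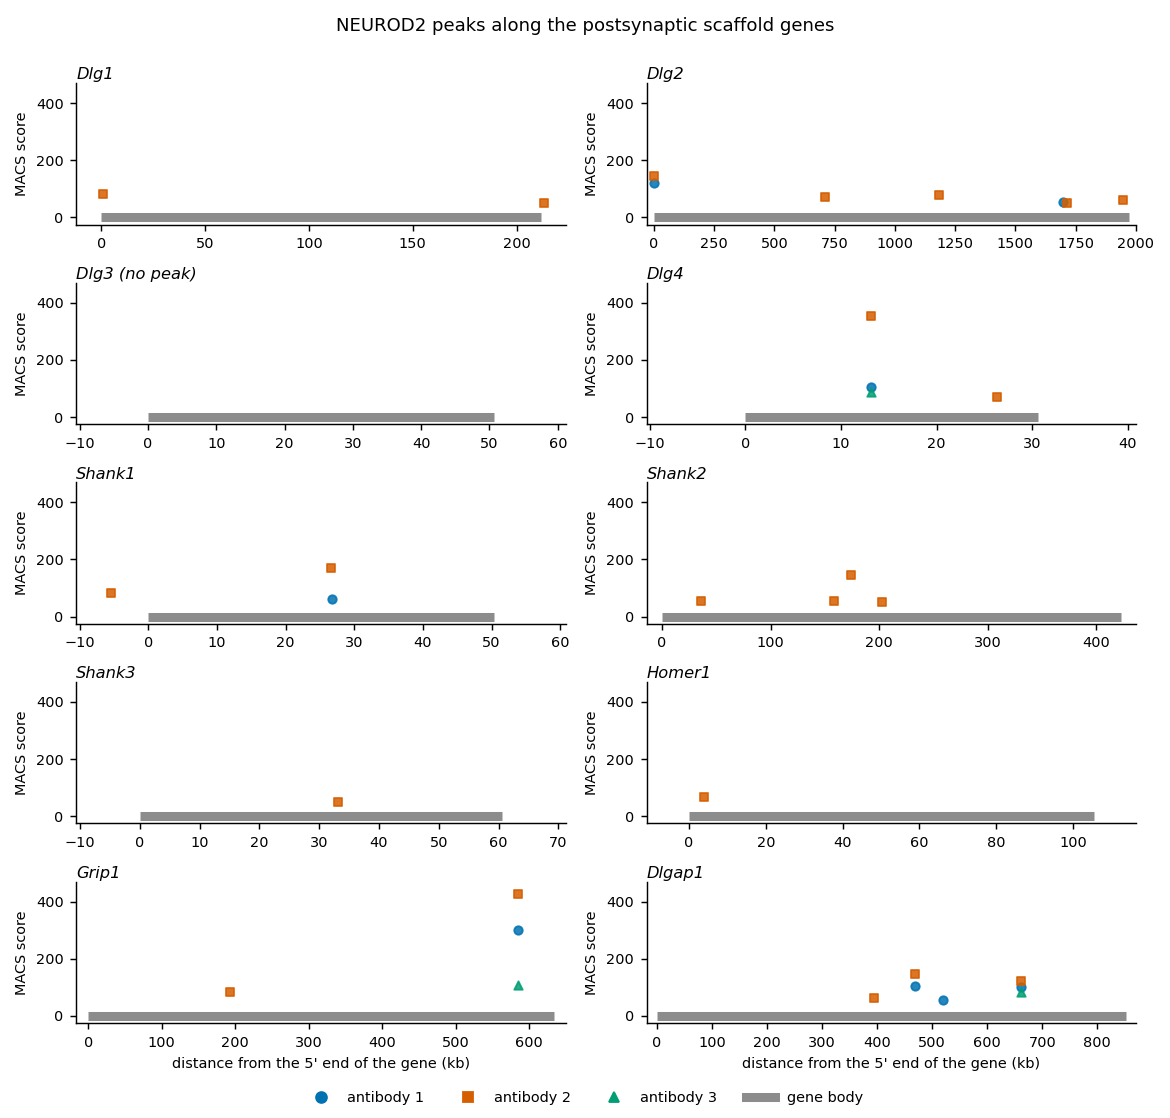
Peaks of each antibody along the 10 scaffold genes, with the distance of the peak's midpoint from the 5′ end of the gene in kb (each gene on its own scale) and the MACS score on the vertical axis. Grey bars mark the gene body. All 3 antibodies meet once in each of Dlg4, Grip1 and Dlgap1, and Dlg3 has no peak.

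DLG4, also known as PSD-95, is the most studied DLG scaffold of the excitatory synapse. Its shared site, at chr11:70029831-70030413 (583 bp), lay 13.18 kb into the gene. The score there was 104.53 with antibody 1, 354.46 with antibody 2 and 86.8 with antibody 3. Antibody 2 thus ranked the site far higher in its list than the other 2 did, at percentile 91.9 against 59.5 and 57.7, a mean of 69.7 ± 19.2 (SD, n = 3 antibodies). Among the 2088 shared sites the percentiles were lower, 24.8, 59.7 and 40.2 for antibodies 1, 2 and 3, with antibody 2 again highest. The midpoints of the 3 peaks fell within 76 bp of each other, and all 3 covered a stretch of 240 bp. The midpoint of the site was 33 bp from the transcription start site (TSS) of an annotated Dlg4 transcript, 2 TSSs of Dlg4 lay inside the site and 7 lay within 1000 bp of its midpoint. In the longer transcript ENSMUST00000108588.8 the same sequence is intron 2, which is 3410 bp long, and the right edge of the site covered 15 bp of the exon that follows. The place of this site therefore depends on the transcript, promoter by the nearest TSS and intron in the deposited table of shared sites. The site held 3 E-boxes, CAAATG at its left, CATCTG near its middle and CAGGTG at its right. Of these, CATCTG (chr11:70030087-70030092), the reverse complement of CAGATG, was the only one under the peaks of all 3 antibodies, and it lay 32 bp from the midpoint.

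Grip1 had the highest scores of the 10 genes with each antibody. At chr10:120038217-120038645 (429 bp), 584.6 kb from the 5′ end of the gene, the scores were 300.21, 426.97 and 108.31 for antibodies 1, 2 and 3. Their percentiles were 90.3, 94.5 and 69.0, with a mean of 84.6 ± 13.7 (SD, n = 3 antibodies), and among the 2088 shared sites they were 76.6, 71.8 and 54.8. All 3 peaks covered the same 300 bp, and their midpoints fell within 37.5 bp. The nearest TSS was 45325 bp away. The site covered the whole of exon 18 of the 25 exons of ENSMUST00000138410.7 (chr10:120038291-120038430, 140 bp, all of it coding and used by 15 annotated transcripts), intron 18 of 168 bp, and 47 bp of the next exon. Its midpoint fell 1 bp past the last base of exon 18, so it counts as intronic here and as exonic in the deposited table. All 3 of its E-boxes, 1 of the form CACTTG followed by 2 copies of the form CAGATG, lay in the coding sequence of exon 18, and the last of them, 3 bp from the midpoint of the site, ended at the last base of the exon. In the printed stretch the gt of the splice donor follows this E-box directly.

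DLGAP1 was represented by a shared site in intron 2 of ENSMUST00000148486.7, at chr17:70629938-70630287 (350 bp), 661 kb from the 5′ end of the gene. It scored 100.93, 122.46 and 84.16 with antibodies 1, 2 and 3. Their percentiles in the full lists were 57.5, 63.5 and 55.6 (mean 58.8 ± 4.12, SD, n = 3 antibodies), but among the 2088 shared sites they were 23.1, 9.53 and 37.9, farther apart and with antibody 2 lowest. The peaks had midpoints within 62 bp and a common stretch of 215 bp. The intron is 64072 bp long, the nearest exons of this transcript were 36556 bp and 27166 bp from the edges of the site, and the nearest TSS was 68561 bp from its midpoint. The common stretch held CAGTTG and 2 copies of CAGCTG, 20 bp and 28 bp to the left and right of the midpoint. No antibody placed this site above percentile 63.5 of its full list.

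Set against the shared sites alone, the 3 genes spread over the range, and no 1 antibody ranked all 3 sites highest. The Grip1 site ranked 487, 587 and 941 of 2088 by antibodies 1, 2 and 3, the Dlg4 site 1570, 841 and 1248, and the Dlgap1 site 1603, 1887 and 1290. The authors' table of 2071 shared sites lists the same 3 sites under Grip1, Dlg4 and Dlgap1, with 1 score each of 835.49, 545.79 and 307.55, at ranks 585, 1115 and 1840. No other site of that table lay in the spans of the 10 genes.

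Antibodies 1 and 2 met without antibody 3 at 3 further sites, and no site at these genes joined antibody 3 to only 1 of the others. Genome-wide, 15.7% of merged sites had antibodies 1 and 2 alone, 3.85% antibodies 2 and 3, and 0.253% antibodies 1 and 3. At Dlg2, which encodes PSD-93, the site chr7:90475857-90476294 (438 bp) scored 119.75 with antibody 1 and 144.11 with antibody 2. These were percentiles 65.3 and 70.1 of the full lists, and 82.5 and 59.9 over the 1984 sites in the genome that had antibodies 1 and 2 alone, where the order turned. Its midpoint lay 596 bp before the first base of Dlg2 but only 75 bp from a TSS of Tmem126b, a mitochondrial complex I assembly factor gene transcribed the other way. The site therefore cannot be given to 1 of these 2 promoters by position. It held CACGTG, which lies in the first exon of Tmem126b, and CAGCTG, 39 bp from the midpoint, which lies in neither gene.

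At Shank1 the site chr7:44336541-44337251 (711 bp) lay in intron 15 of ENSMUST00000107938.7, 880 bp from the TSS of a non-coding Shank1 transcript and 24189 bp from the nearest TSS of a coding transcript. Antibody 1 gave it a score of 61.87 and antibody 2 a score of 170.71. These lay at percentiles 27.2 and 75.8 of the full lists and at 26.9 and 70.6 over the 1984 sites of antibodies 1 and 2 alone. It held 5 E-boxes, 2 of them CATCTG, 2 CACGTG and 1 CACCTG. All 3 copies of CACGTG under the 24 sites of the 10 genes were in the Shank1 and Dlg2 sites.

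The second site of Dlgap1 with 2 antibodies, chr17:70437295-70437623 (329 bp), lay 468.4 kb into the gene and 12665 bp from the nearest TSS. It scored 103.17 with antibody 1 and 144.82 with antibody 2, at percentiles 58.6 and 70.3 of the full lists, and at 74.2 and 60.4 over the 1984 sites of antibodies 1 and 2 alone, again in the other order. It held CAGATG and CAGCTG, 83 bp and 84 bp to either side of its midpoint. With antibody 2 it scored above the shared site of the same gene, at 144.82 against 122.46, and antibody 3 had no peak there.

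The other 18 sites were called by 1 antibody, 16 of them by antibody 2 and 2 by antibody 1. The 16 scores of antibody 2 ran from 50.01 to 144.05 with a median of 65.28, and 1 of the 16 was at least 100. Over all 6598 sites in the genome with antibody 2 alone the median was 72.49 and 24.6% scored at least 100. The 2 scores of antibody 1 were 53.8 in Dlg2 and 55.4 in Dlgap1, and the median over all 992 sites with antibody 1 alone was 57.11.

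**Figure D2:**
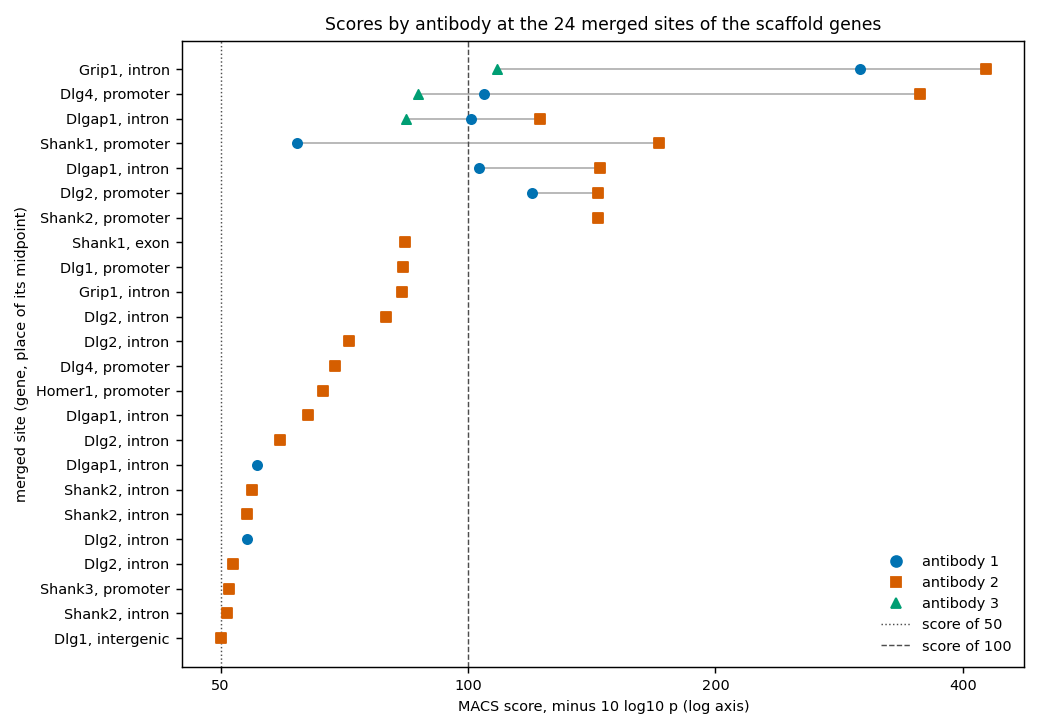
MACS scores by antibody at the 24 merged sites of the scaffold genes, on a log axis. Each row is 1 site, with its gene and the place of its midpoint. For display only, rows are set out by the number of antibodies and then by the highest score of any antibody. Of the 18 single-antibody sites 1, in Shank2, lies above 100, and its score of 144.05 is above that of the same antibody at the shared site of Dlgap1, 122.46.

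The DLG family differed from gene to gene. Dlg4 had its shared site and, 26.29 kb into the gene, a peak of antibody 2 alone with a score of 68.8. Dlg2 had the site of 2 antibodies before its start and 5 intronic single-antibody sites, 4 of antibody 2 with scores from 51.78 to 79.51 and 1 of antibody 1. Dlg1, which encodes SAP97, had 2 peaks, both of antibody 2. The stronger, at chr16:31664184-31664493, scored 83.37 (percentile 43.1) and its midpoint was 189 bp from a Dlg1 TSS. The weaker scored 50.01, just above the threshold, and lay beyond the 3′ end of Dlg1 at 2270 bp from the TSS of Meltf. Dlg3, which encodes SAP102, had no peak of any antibody in its 50.69 kb body (chrX:100767722-100818410) or its flanks. A span with no peak shows only that no score reached the threshold at these unknown depths.

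The SHANK genes encode the scaffolds that bridge DLGAP1 and HOMER1, and none of the 3 had a shared site. Shank2 had 4 peaks, all of antibody 2. Of these, 3 scored from 50.85 to 54.53, and the fourth scored 144.05 (percentile 70.1) at chr7:144175518-144175906, 183 bp from the TSS of an internal Shank2 transcript and 173.8 kb from the 5′ end of the gene. That promoter peak held 4 E-boxes, CAGCTG among them at 2 bp from the midpoint, and was the only single-antibody site above a score of 100. Shank3 had 1 peak, of antibody 2, with a score of 51.16 at 111 bp from an internal TSS 33.16 kb into the gene. Shank1 had, besides its site of 2 antibodies, a peak of antibody 2 with a score of 83.71 at chr7:44304571-44304985. It lay 5475 bp before Shank1 in an exon of Clec11a, the gene next to it.

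HOMER1 and GRIP1 each had a single-antibody peak as well. The Homer1 peak scored 66.6 with antibody 2 (percentile 27.3) at chr13:93303390-93303643, and its midpoint was 240 bp from a Homer1 TSS. The second Grip1 site scored 83.18 with antibody 2, 192.8 kb into the gene. Dlgap1 had 2 more, at 63.95 with antibody 2 and 55.4 with antibody 1.

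By place, 8 of the 24 sites had their midpoint within 1000 bp of a TSS, 14 in an intron, 1 in an exon and 1 between genes. Promoter sites were found at Dlg1, Dlg2, Shank1, Shank2, Shank3 and Homer1, once each, and at Dlg4 for both its sites. The second Dlg4 site counts only through a Dlg4 transcript not annotated as coding, whose TSS was 965 bp away. The nearest TSS of a coding transcript, that of Asgr1, was 10853 bp away. Antibody 2 alone gave 5 of the 8 promoter sites and 9 of the 14 intronic ones. At Dlg1, Dlg4, Shank1, Shank2, Shank3 and Homer1 the nearest TSS of the promoter site was not the first base of the gene but that of another annotated transcript.

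The make-up of the sites was set beside that of the genome. Shared sites were 12.5% of the 24 sites and 16.5% of all merged sites, sites of 2 antibodies 12.5% and 19.8%, and sites of 1 antibody 75% and 63.7%. Antibody 2 alone accounted for 66.7% of the sites at the 10 genes and for 52.2% of all. With 24 sites these shares rest on few counts.

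Each antibody also has its own background. A peak of antibody 1 lay at 5 of the 10 genes (Dlg2, Dlg4, Shank1, Grip1 and Dlgap1) and at 15.4% of protein-coding genes. A peak of antibody 2 lay at all 9 genes with a peak and at 33.2% of protein-coding genes. A peak of antibody 3 lay at 3 genes and at 11.1% of protein-coding genes. At these 10 genes every gene with a peak of antibody 3 also had one of antibody 1, and every gene with a peak of antibody 1 also had one of antibody 2. Sites that break this order are few in the whole genome too. Antibody 3 alone gave 3.61% of all merged sites, antibodies 2 and 3 gave 3.85%, and antibody 1 alone gave 7.85%. The nesting is therefore not read as particular to these genes.

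These genes are long, and a long gene is more often given a peak. The counts of genes with a shared site and with any peak were therefore read against genes of like length. The counts for at least 2 antibodies and for each antibody were not. Among protein-coding genes of 30 to 100 kb, 7.83% had a shared site and 41.8% any peak. The 4 members of that length were Dlg3, Dlg4, Shank1 and Shank3, of which 1 had a shared site and 3 a peak. Among genes of 100 to 300 kb, the length of Dlg1 and Homer1, the shares were 15.9% and 58%, and here 0 of 2 had a shared site and both had a peak. Among genes of 300 to 1000 kb, 32.5% had a shared site and 75.8% a peak, and of Shank2, Grip1 and Dlgap1 2 had a shared site and all 3 a peak. Over 1000 kb the shares were 40.7% and 81.4%, and Dlg2, with 1973 kb, had a peak and no shared site. Added over the 10 genes, these shares come to 2.01 genes with a shared site, beside 3 found, and to 5.92 genes with a peak, beside 9 found.

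**Figure D3:**
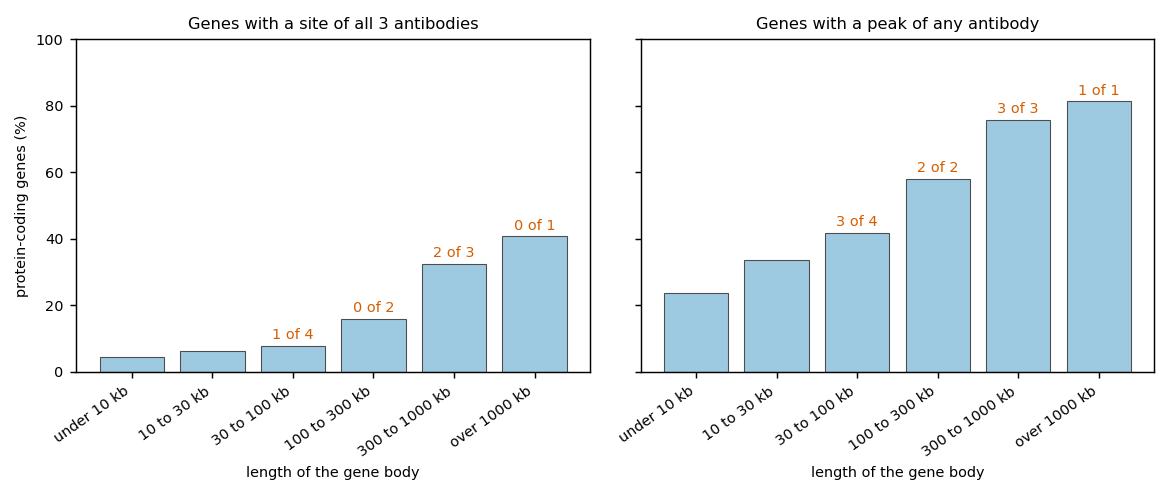
Percent of protein-coding genes, by length of the gene body, with a shared site (left) or a peak of any antibody (right) in the body or the 10 kb on either side. Orange text gives how many of the scaffold genes of that length had one. The share with a shared site goes from 4.4% in the shortest to 40.7% in the longest genes.

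Per length of sequence the sites of the 10 genes together were fewer than in gene spans at large. For shared sites, but not for merged sites, this depended on Dlg2. The 10 spans cover 4.59 Mb and held 5.23 merged sites and 0.654 shared sites per Mb, whereas the spans of all protein-coding genes together held 7.24 and 1.14. Without Dlg2, which has the largest span, 6 of the 24 sites and no shared site, there were 6.93 merged sites and 1.15 shared sites per Mb, so that the lower value for shared sites was no longer seen. Between the genes the number per 100 kb ran from 0.301 in Dlg2 and 0.306 in Grip1 to 2.84 in Shank1 and 3.95 in Dlg4, and was 0 in Dlg3. Thus the 2 genes with the highest scoring shared sites, Grip1 and Dlg4, lay near opposite ends of that range.

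E-boxes were counted in the 200 bp around the midpoint of every site, called its central 200 bp. This window reaches past the edges of the shorter single-antibody sites. At the 123 bp Dlg2 site of antibody 1, for example, the window held 4 E-boxes and the site itself 2. In this window the Grip1 and Dlgap1 shared sites held 3 each and the Dlg4 site 1, a mean of 2.33 ± 1.15 (SD, n = 3 sites). Windows of the same length lying 2000 bp beyond the edges of these sites held 1 on average. The Dlg4 site held no more than its own flanks. The mean came to 4 per 200 bp in the central 100 bp and to 1.38 over the whole sites. Over all 2088 shared sites the mean was 2.44 ± 2.03 (SD) in the centre and 1.15 in the flanks. The scaffold sites thus fell within the spread of the shared sites. The 3 sites of 2 antibodies also had a mean of 2.33, with 1.67 in the flanks, and the 18 sites of 1 antibody a mean of 2.11 ± 1.08 (SD), with 1.14 in the flanks, against 2.31 and 1.77 over all sites of those kinds.

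**Figure D4:**
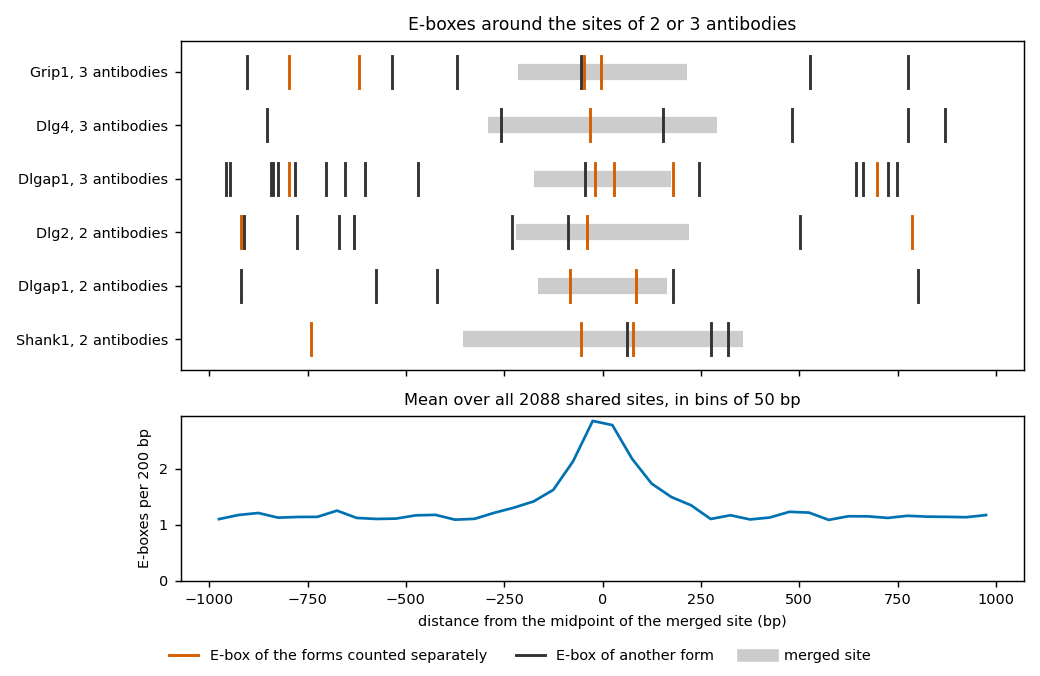
Top, E-boxes on the reference within 1000 bp of the midpoints of the 6 scaffold sites of 2 or 3 antibodies, with the site itself in grey and the 2 forms that were counted separately in orange. Bottom, mean number of E-boxes per 200 bp over all 2088 shared sites. The mean peaks at 2.85 beside the midpoint, and each of the 6 scaffold sites has an orange E-box within 100 bp of its midpoint.

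The form CAGCTG and the form CAGATG, which is CATCTG on the other strand, were counted separately. At least 1 of them lay in the central 200 bp of all 3 shared scaffold sites and all 3 sites of 2 antibodies, and of 12 of the 18 single-antibody sites (66.7%). The shares over all sites of those kinds were 76.8%, 73.7% and 58.1%. Among the 12 is the Dlgap1 peak of antibody 1 with a score of 55.4, which is 148 bp long. Its CAGATG form lay in the window but outside the peak. Of the 55 E-boxes under the 24 sites, 15 were CAGATG, 12 CAGCTG and 9 CACCTG.

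Such E-boxes were common along the genes and mostly without a peak. The 10 spans held 25059 E-boxes, 1 per 183.2 bp, with the densest spacing in Shank2, at 1 per 144.5 bp. The 24 sites covered 0.156% of the spans, 0.219% of the E-boxes, 0.682% of the 1760 copies of CAGCTG and 0.392% of the 3827 copies of CAGATG. A run of these forms was also found at low scores. A single-antibody site of Dlg2, with a score of 79.51, held 3 copies of CAGCTG in 20 bp, and that of Dlg4, with 68.8, held 3 copies of CATCTG in 48 bp. In turn, 3 single-antibody peaks held no E-box, the Shank2 peaks of antibody 2 with scores of 54.53 and 50.85 and the Dlgap1 peak of antibody 1 with a score of 55.4.

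RefSeq promoter windows, 300 bp long and reaching 50 bp past a gene start, were at hand for 8 of the 10 genes, 20 windows in all. An E-box lay in 70% of them, CAGCTG in 25% and CAGATG in 10%, against 72.3%, 16.3% and 17.2% of 32851 windows of all genes. Of the 20 windows, 1 was overlapped by a site, that of Homer1 printed above, and the E-box of this window is CAGGTG. It lay 90 bp from the midpoint of the Homer1 peak. The peak also held CATATG and CATTTG, 21 bp and 12 bp from its midpoint, which start before the printed stretch. Both windows of Dlg3, the gene without a peak, held an E-box, 1 in the first and 2 in the second, CAGCTG among the latter.

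Other genes of the postsynaptic scaffold were looked up in the same way, 26 of excitatory synapses and 1, Gphn, which encodes gephyrin, of inhibitory ones. Of the 27, 6 had a shared site, 11 a site of at least 2 antibodies and 17 a peak, beside 7.52%, 15.1% and 35.2% of protein-coding genes, and Gphn had no peak. The length shares added up to 4.98 genes with a shared site and 15.3 genes with a peak. Without antibody 3, with sharing asked of the other 2, 11 of the 27 had a shared site (13.2% of protein-coding genes). With scores of at least 100, 2 of the 27 had one (3.5%). Dlgap2, a paralogue of Dlgap1, had 2 shared sites, the higher with scores of 613.1, 806.71 and 385.03 for antibodies 1, 2 and 3, each above the highest score of the same antibody at the 10 genes. Dlgap3 had 1, at 131.4, 169.88 and 82.1, and Dlgap4 had 4 sites, none of them shared. Shared sites were also found at Magi1 (2 sites, the higher at 209.84, 294.34 and 95.79), Sipa1l1 (302.94, 371.66 and 74.59), Baiap2 (291.87, 532.54 and 192.23) and Tanc1 (87.14, 144.63 and 53.51). The site given to Sipa1l1 lay 6.17 kb past the end of its gene, and that given to Baiap2 lay 4.89 kb before the gene, nearest to a TSS of Gm11766, so that 4 of the 27 had a shared site within the gene body, beside 5.2% of protein-coding genes. Homer3 and Grip2 had no peak, and Homer2 and Dlg5 had 1 site each, not shared.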

How the data were processed

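Single-end reads were aligned by the authors with Bowtie (genome build mm10, that is GRCm38), and MACS was run on each antibody separately, with the GFP reads as control. Each deposited peak carries the MACS score (minus 10 log10 p), which was not scaled between antibodies. The authors' table of shared sites gives 1 score per site, which at the 3 sites here is the sum of the scores of the peaks in it. Read counts are not given in these files, so depth is unknown, although peak numbers and scores depend on it.

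Peaks sharing at least 1 bp were merged, and a shared site had a peak of all 3 antibodies. Sites were given to genes of GENCODE M21 (GRCm38) by overlap with the body and 10 kb on either side, and placed by their midpoint as promoter (within 1000 bp of a TSS), exon, intron or intergenic. A site can be given to several genes. The E-box CANNTG was searched on the RefSeq sequence of GRCm38, and on both strands for its forms. The windows for E-boxes were 200 bp. Scores were used as deposited, and percentiles were taken within each list. Antibodies were treated as 3 replicates, and no test was run, since no groups of samples can be compared. Merging, gene assignment and E-box counts were tested on simulated data. Alternatives concerned the score threshold, the flank, the overlap, the windows and leaving out each antibody.

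The 10 genes and the list of other scaffold genes were chosen with earlier results of these data known. The result for 1 listed gene is not reported here, and that gene is in no count of the list. All 10 were named, with every site of 2 or 3 antibodies in full, the highest single-antibody site per gene and the rest by counts and ranges, and of the other scaffold genes those with a shared site. Further genes and sites that are named, such as the runs of E-boxes and the Dlgap, Homer, Grip and Dlg paralogues, were chosen after their values were seen. Python 3.11.15, numpy 2.4.6, pysam 0.24.0, samtools 1.23.1 and matplotlib 3.10.9 were used.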

Additional observations from a re-analysis of the deposited data

How the results depend on the processing

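The shared sites at Dlg4, Grip1 and Dlgap1 were found with the body alone, with midpoints, with a common stretch of at least 100 bp, with coding transcripts and in the deposited table. Only peaks of at least 100 left 1 shared site at 1 gene (Grip1), 7 merged sites, and 2 of the other scaffold genes with a shared site, with 3.5% of protein-coding genes as background for shared sites. At this cut 6 of the 10 genes kept a peak. Extending the flank to 50 kb gave 5 shared sites at 4 genes (background 15.6%), the 2 added ones lying 21.8 kb and 23.4 kb beyond Shank1 and nearest to Syt3. Leaving out 1 antibody, with sharing asked of the other 2, gave 3 to 5 genes and 3 to 6 sites shared (background 9.66%, 7.58% and 13.2% without antibody 1, 2 and 3), 5 to 9 genes with a peak (background 34%, 18.2% and 34.5%), 8 to 24 merged sites and 6 to 11 of the other scaffold genes. Leaving out antibody 3 gave the highest values, 5 genes, 6 sites and 11 other genes, and leaving out antibody 2 the lowest, 5 genes with a peak and 8 merged sites, with none left at Dlg1, Shank2, Shank3 and Homer1. E-boxes came to 4 per 200 bp in the central 100 bp and to 1.381 over the whole site. Among shared sites alone the mean percentiles were 41.59 at Dlg4, 67.75 at Grip1 and 23.52 at Dlgap1. Without 1 antibody the mean percentile was 58.59 to 75.68 at Dlg4, 79.65 to 92.41 at Grip1 and 56.53 to 60.47 at Dlgap1, and E-boxes stayed at 2.33. Leaving Dlg2 out of the density of sites, which moved shared sites from 0.654 to 1.155 per Mb, was chosen after seeing the data. With the body alone 3 of the 10 genes and 4 of the other scaffold genes had a shared site (background 5.2%). The cause of these differences was not tested. No paired analysis was possible because only 1 group has more than 1 library.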
